A study of Drosophila melanogaster with 266 samples.

Results

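R1-6 are the outer photoreceptors of the Drosophila compound eye, and they were profiled here in 4 of the 266 libraries of the series, all made with the ninaEfl-GAL4 driver, which labels these cells through a fragment of the rhodopsin gene ninaE. The members were chosen by the submitters' labels alone. In all of the photoreceptor and other neuron libraries compared below, heads of adult flies carried the nuclear envelope tag UNC84 fused to GFP under 10XUAS at attP2, and GAL4 of a given line switched the tag on in the labelled cells. Nuclei were captured with antibodies to GFP and their RNA was sequenced, so the values are levels of nuclear RNA. Replicates 1 and 2 were made with INTACT, in which nuclei are purified by centrifugation and captured once. Replicates 3 and 4 were made with TAPIN, in which captured nuclei are released by a protease and captured a second time. The libraries of the other photoreceptors, all TAPIN, were 2 of R7 (driver BL-8604), 2 of R8_Rh5 (BL-7458) and 2 of R8_Rh6 (BL-7464). The other neuron types were 42 in TAPIN libraries and 18 in INTACT libraries, the latter with 38 libraries. Flies were kept in alternating light and dark and frozen in the later part of the light phase, and for the TAPIN libraries the sexes were not sorted. The study notes that the R7 line also labels R8 cells of the dorsal rim, the ocelli and the eyelet, and that the R8_Rh6 line also labels a few eyelet cells. Each photoreceptor type came from 1 line, so the cell type and its driver line cannot be told apart, and the labels do not say that replicates came from separate cohorts, so p-values measure the spread between libraries.

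Each unit of the compound eye holds a ring of R1-6 cells around a central R7 and R8. R1-6 serve motion and dim-light vision, use the blue-green rhodopsin Rh1 (encoded by ninaE) and send histamine to the lamina, whereas R7 and R8 serve colour and polarization vision with other rhodopsins and project to the medulla. In all of these cells an activated rhodopsin turns on the G protein Gq, which turns on phospholipase C (norpA), and the hydrolysis of a membrane phosphoinositide opens the channels TRP and TRPL in the rhabdomere, a stack of microvilli. The cells respond with graded potentials.

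The label was borne out by the 3 marker genes. ninaE (chromosome arm 3R, 19886255 to 19888206, minus strand; all coordinates are of BDGP6.54) had 50659 and 53319 TPM (each gene's share of coding transcripts, corrected for length) in the INTACT libraries of R1-6, 32982 and 28182 TPM in the TAPIN libraries, and 898 to 1316 TPM in the 6 libraries of R7 and R8. The lowest R1-6 library was thus far above the highest of the other photoreceptors, with a ratio of the TAPIN means of 29.01 (log2 difference 4.87, SE 0.12, adjusted p = 5.9e-09). In the 42 other neuron types ninaE had a median of 532 TPM and reached 2702 TPM, so the level in R7 and R8 lay within the range of the other neuron types. trpl, the second light-activated channel, had 5109 and 5190.2 TPM in the INTACT and 8546 and 9069 TPM in the TAPIN libraries of R1-6, against 4079, 3623, 4019, 3608, 3601 and 3914 TPM in R7 and R8 and 2.85 to 64.4 TPM in the other neuron types. Arr2, the major arrestin that switches rhodopsin off, had 5238 and 6302 TPM and 4355 and 5163 TPM, against 1226 to 3689 TPM in R7 and R8 and 4.70 to 147.7 TPM in the other types. All 3 markers were higher in every R1-6 library than in every library compared.

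Between 10426 and 10922 of the 13931 coding genes had a TPM above 0 in the R1-6 libraries, against 9627 to 10047 in R7 and R8. The log TPM of the replicate libraries correlated across genes with r = 0.926 (INTACT) and 0.968 (TAPIN), and across the protocols with 0.918 to 0.932, against 0.856 to 0.91 with R7 and R8; genes are not independent replicates. The ERCC spike-ins, synthetic RNAs mixed with the purified RNA at a set dilution, took 3.58% and 6.51% of all TPM in the INTACT and 0.428% and 1.04% in the TAPIN libraries of R1-6, and 1.26% to 4.84% in R7 and R8. Summed TPM of 7 pigment cell markers was 329 to 430 in the INTACT libraries of R1-6, 54.5 to 81.9 in the TAPIN libraries and 47.5 to 131.7 in R7 and R8. The 7 glia markers summed to 319 to 423, 220.4 to 220.5 and 83.2 to 302, and the 6 markers of other photoreceptors to 303 to 368, 107.5 to 130.4 and 6096 to 23658. Cone cell markers (5 genes, among them dve and pros, which photoreceptors can also use) summed to 431 to 620.1, 312 to 329 and 35.6 to 705. No muscle marker and 0 of 7 glia markers were called on in all 4 R1-6 libraries by the authors' model. The part of such cells in the results below was not tested, and in captured nuclei of many cells, fewer cells of a type and less RNA per cell cannot be told apart.

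R1-6 differed from R7 and R8 in a broad set of genes. Comparing the 2 TAPIN libraries of R1-6 with the mean of the R7, R8_Rh5 and R8_Rh6 groups (limma on log2(TPM + 1), Benjamini-Hochberg adjusted p under 0.05), 678 of 7682 genes were higher in R1-6 (8.83%) and 739 were lower (9.62%), with a median difference over all genes tested of 0.15. Adding the INTACT libraries as a check across protocols, 407 of the higher genes had all 4 R1-6 libraries above all 6 libraries of R7 and R8, and 430 of the lower genes had all 4 below (5.3% and 5.6% of genes tested). Without R1-6 TAPIN replicate 3 the counts were 341 and 449, and without replicate 4 they were 294 and 433. Of the calls of genes named in the text, those of Rh2, Gbeta76C, sktl, ninaB, cno, svp, so, hth, Ih, kcc, cac, stj, Hdc, Gad1, VGlut, Ekar, GluClalpha, Nckx30C, fne and CG30382 were lost without replicate 3 and also without replicate 4. Those of Calx, tim, wts, eag and slo were lost without replicate 3 alone, and those of Gprk1, PI4KIIIalpha, chp, didum, Syx1A, Csp, nAChRbeta1, CG17959 and CG12661 without replicate 4 alone. On the log2(TPM + 1) scale a difference understates the change of low genes.

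**Figure D1:**
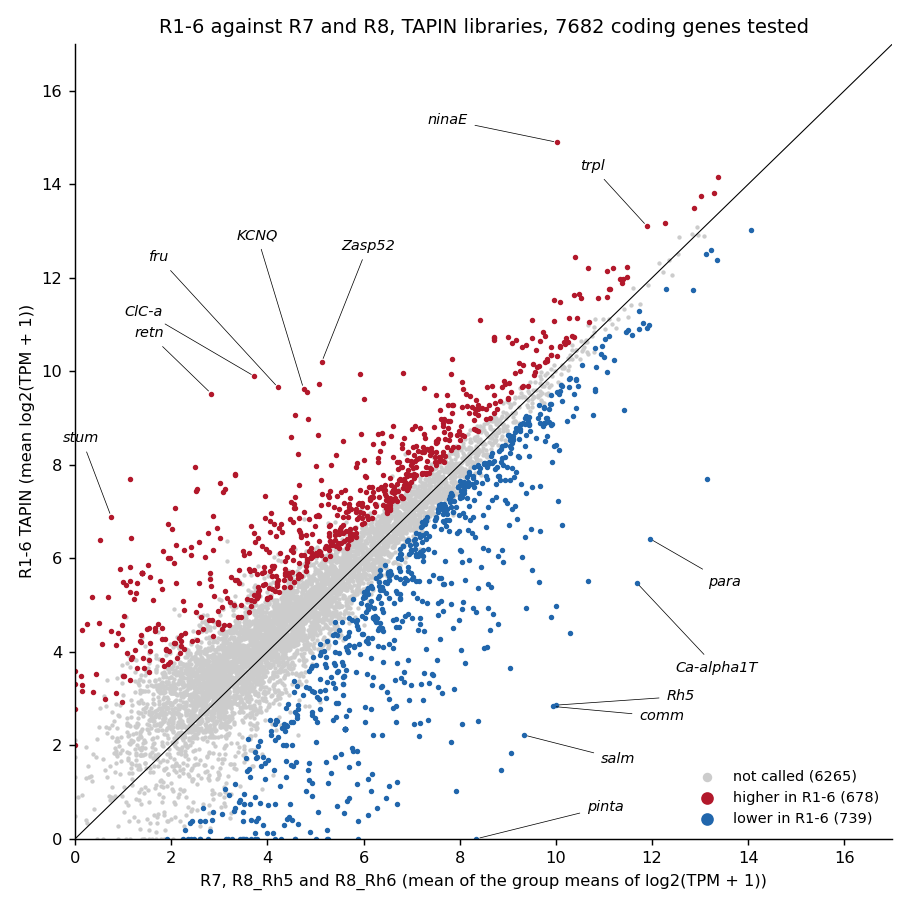
Level in R1-6 (vertical, mean log2(TPM + 1) of the 2 TAPIN libraries) against the level in R7 and R8 (horizontal, mean of the 3 group means) for the 7682 genes tested; red genes were higher and blue genes lower in R1-6, grey genes were not called, and the line marks equal levels. ninaE lies far above the line at the top, retn, ClC-a, fru and KCNQ lie above it among genes of low level in R7 and R8, and para, Ca-alpha1T, salm and comm lie far below it.

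Of the 7 rhodopsin genes, ninaE was higher in R1-6 and Rh2, Rh3, Rh4, Rh5 and Rh6 were lower; Rh7 had 2.52 to 15.6 TPM in R1-6 and 0.16 to 6.75 TPM in R7 and R8 and was not called. Rh5, the blue opsin of pale R8, had 23.7 and 56.5 TPM in the INTACT and 6.60 and 5.92 TPM in the TAPIN libraries of R1-6, against 11181 and 9368 TPM in R8_Rh5 (log2 difference -7.14, SE 0.26, adjusted p = 5.1e-08). Rh6, the green opsin of yellow R8, had 96.4 and 36.7 TPM and 15.9 and 25.5 TPM, against 22659.8 and 17286 TPM in R8_Rh6 (log2 difference -5.88, SE 0.32, adjusted p = 6.6e-07). For both genes all 4 R1-6 libraries lay below all 6 others. The ultraviolet opsins Rh3 and Rh4 of R7 had 19.5 to 40.3 TPM and 44.3 to 185.4 TPM in R1-6 and 1869.8 and 2562 TPM and 2872 and 2429 TPM in R7. These calls rest on R7 and, in part, R8_Rh6, since both opsins had at most 10.5 TPM in R8_Rh5, which lay below R1-6. Rh2, the opsin of the ocelli, had 20.7 to 28.3 TPM in R1-6 and 399 and 459 TPM in the R7 line, and overlapped with both R8 groups. In the authors' on/off model, ninaE was on and Rh2, Rh3, Rh5, Rh6 and Rh7 were off in all 4 R1-6 libraries, while Rh4 was off in 3 of them, with a probability of 0.29 in INTACT replicate 1.

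The genes of the phototransduction cascade were higher in R1-6 than in R7 and R8 by a modest amount. Of the 17 genes listed, all of them tested, 14 were higher and 0 lower in limma's test (16 and 0 at an unadjusted p under 0.05), beside 8.83% and 9.62% of all genes, and the list's median difference was 0.68. For 6 of the 14 (trpl, norpA, Ggamma30A, inaF-B, Arr2 and Gprk1) all 4 R1-6 libraries lay above the 6 others. Among all genes tested, this held for 407 of the 678 called higher, so the cascade did not stand out in this respect. inaF-B, a small membrane protein needed for TRP function, had 1068 and 1278 TPM and 1753 and 1526 TPM in R1-6 and 411, 312, 618, 537, 334 and 392 TPM in R7 and R8, the largest difference of the list (log2 difference 1.95, SE 0.13, adjusted p = 3.4e-06), but it shares its locus with inaF-A, inaF-C and inaF-D, whose reads may be split between them. trpl followed, at 2.31 times the mean of R7 and R8 (log2 difference 1.21, SE 0.08, adjusted p = 2.2e-06). norpA, the phospholipase C, had 10367 and 9634 TPM and 14848 and 12683 TPM against 7441 to 9061 TPM (log2 difference 0.72, SE 0.09, adjusted p = 1.8e-04). Ggamma30A, the G protein gamma subunit of the eye, had 11210.0 to 11584 TPM against 5424 to 9981 TPM (log2 difference 0.60, SE 0.07, adjusted p = 1.0e-04). With the shared spread taken from all libraries of single drivers, 6 of the 14 passed the test, trpl and Arr2 not among them, and with all 4 R1-6 libraries as a single group 9 of the 17 did.

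For most other members the INTACT libraries of R1-6 were lower than the TAPIN libraries. trp had 3949 and 4034 TPM in the TAPIN libraries of R1-6 and 2008 to 3101 TPM in R7 and R8 (log2 difference 0.64, SE 0.10, adjusted p = 0.0013), but 2236 and 2606 TPM in the INTACT libraries, within the range of R7 and R8. The INTACT libraries also lay within that range for inaC (the eye's protein kinase C) and ninaC (a myosin with a kinase domain), and at its low end or below it for rdgC (a rhodopsin phosphatase), Gbeta76C (the G protein beta subunit) and Calx (a sodium/calcium exchanger). Set against the same R7 and R8 libraries, the INTACT libraries gave 8 cascade genes higher and 3 lower, with differences of -0.09 for trp, -0.06 for inaC, 0.06 for ninaC, -0.49 for rdgC, -0.23 for Gbeta76C and -0.33 for Calx. inaD, the scaffold of the signalling complex, and Arr1, the minor arrestin, were called higher, at 0.69 and 0.64, with libraries that overlapped. Galphaq had 3423 and 3627 TPM in TAPIN, 1885 and 1863 TPM in INTACT and 2500.1 to 3673 TPM in R7 and R8, rtp (retinophilin) 3917 to 5090.2 TPM against 3964 to 5280.4 TPM, and Cam (calmodulin) 6931 to 13426 TPM against 4536 to 7242 TPM, and these 3 were not called.

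The enzymes of the phosphoinositide cycle, which restore the lipid that norpA splits, moved in both directions. Beside them, 8.83% of all genes were higher and 9.62% lower. Of 10 genes, 3 were higher and 2 lower, with a median of 0.37, and without R1-6 TAPIN replicate 3 or 4 the lower count was 1. rdgA, the diacylglycerol kinase, had 13167 and 10901 TPM and 15318 and 13568 TPM in R1-6 against 7862 to 12352 TPM (log2 difference 0.53, SE 0.09, adjusted p = 0.002). INTACT replicate 1 lay above and replicate 2 within the range of R7 and R8. PI4KIIIalpha, a phosphatidylinositol 4-kinase, had 156.1 to 210.9 TPM in the 4 R1-6 libraries against 57.7 to 127.96 TPM, without overlap (log2 difference 0.84, SE 0.15, adjusted p = 0.0025). PIP5K59B, a kinase that makes the norpA substrate, was higher in TAPIN (1122 and 1157 TPM against 586 to 828 TPM) but had 547 and 578 TPM in INTACT. Lower in R1-6 was inaE, the diacylglycerol lipase linked to channel opening, with 109.99 and 123.6 TPM and 139.3 and 148.9 TPM against 415, 483, 698, 645, 425 and 441 TPM (log2 difference -1.81, SE 0.11, adjusted p = 1.5e-06), a ratio of means of 3.59 with no overlap. sktl, another phosphatidylinositol 4-phosphate 5-kinase, was lower by the mean of the groups, through R8_Rh5 alone (96.9 and 147.3 TPM, against 2.16 to 23.1 TPM in R1-6 and 7.21 and 9.56 TPM in R7).

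Among 9 tested genes for rhodopsin maturation and its chromophore, 3 were higher and 2 lower, beside 8.83% and 9.62% of all genes. pinta, a retinoid-binding protein known from the pigment cells and from production of the Rh1 chromophore, was listed at 0 in 3 R1-6 libraries and had 0.88 TPM in INTACT replicate 2, against 130.97, 203.6, 206.2, 266, 895 and 881 TPM in R7 and R8 (chromosome arm 3R, 22423316 to 22424929, minus strand; adjusted p = 5.7e-08). The fitted difference of -8.35 for pinta depends on the pseudocount and is no bound on the fold. Xport-A and Xport-B, chaperones for TRP and rhodopsin made from a shared transcript region, had 257 to 385 and 604 to 748 TPM in R1-6 against 67.5 to 217.3 and 207.8 to 471 TPM (log2 difference 1.05, SE 0.15, adjusted p = 6.5e-04 for Xport-B). ninaB, the carotenoid-splitting enzyme, had 55.5 to 81.2 TPM in R1-6, above R7 (18.8 and 10.6 TPM) and R8_Rh6 (5.73 and 16.5 TPM) and below R8_Rh5 (138.6 and 136.5 TPM). Cnx99A, the calnexin that helps fold rhodopsin, was lower, at 869 and 966 TPM in TAPIN against 900.4 to 1701 TPM (-0.58).

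Rhabdomere and junction genes were also divided, with 4 of 11 higher and 2 lower (median 0.24), beside 8.83% and 9.62% of all genes. Without R1-6 TAPIN replicate 3 the counts were 4 and 1, and without replicate 4 they were 2 and 1. eys (spacemaker), a secreted protein that keeps rhabdomeres apart, had 1052 and 938 TPM and 1066 and 1187 TPM in R1-6 against 541 to 778 TPM, without overlap (log2 difference 0.82, SE 0.09, adjusted p = 1.1e-04). crb, the apical determinant crumbs, had 559 and 692 TPM in TAPIN and 337 and 338 TPM in INTACT against 153.3 to 363 TPM (log2 difference 1.54, SE 0.15, adjusted p = 5.0e-05). chp (chaoptin, the adhesion protein of the microvilli) and didum (the myosin V that carries rhodopsin) were called higher at 0.58 and 0.89 with overlap. Moe, which links the membrane to actin, was lower in all 4 R1-6 libraries, at 546 and 527 TPM and 1013 and 1025 TPM against 2029, 2242, 2637, 2404, 1565 and 2029.5 TPM (log2 difference -1.06, SE 0.10, adjusted p = 4.8e-05), as was cno (-0.36).

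Among transcription factors and other regulators of photoreceptors, 5 of 23 tested were higher in R1-6 and 8 lower, and without R1-6 TAPIN replicate 3 or 4 the higher count was 1 or 2 and the lower count 7. Over all genes 8.83% were higher and 9.62% lower. salm and salr, the paired zinc finger genes known to set inner photoreceptor fate, had 2.66 to 9.44 and 0.57 to 10.01 TPM in R1-6 against 519 to 799 and 162.3 to 307 TPM in R7 and R8 (log2 difference -7.12, SE 0.21, adjusted p = 1.6e-08 for salm, chromosome arm 2L, 11434311 to 11445614, minus strand). sens, which marks R8, had 0.13 to 2.12 TPM in R1-6, 5.63 and 16.8 TPM in R7 and 126.7 to 160.2 TPM in R8. melt, which acts in the choice of pale R8, had 1.82 to 3.98 TPM in R1-6, 229.6 and 238.8 TPM in R8_Rh5, 79.2 and 74.8 TPM in R7 and 8.07 and 5.28 TPM in R8_Rh6. The authors' model called salm, salr, sens and melt off in all 4 R1-6 libraries. dve, a homeodomain repressor of colour opsins in outer photoreceptors, had 118.4 and 137.7 TPM and 118.8 and 152.2 TPM in R1-6 against 21.5, 12.6, 0.77, 3.59, 0.61 and 0.37 TPM (log2 difference 5.01, SE 0.45, adjusted p = 2.3e-05).

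svp, a nuclear receptor known from the fate of R1, R3, R4 and R6 in development, was called higher at a low level (17.3 to 42.96 TPM against 4 to 11.1 TPM; log2 difference 1.47, SE 0.45, adjusted p = 0.046), and the model called it off in all 4 libraries. B-H2, a Bar homeodomain gene of developing R1 and R6, had 6.44 to 7.96 TPM in R1-6 and 0 to 1.83 TPM in R7 and R8, too low for the test, and was on in all 4 R1-6 libraries. elav, the neuronal RNA-binding protein, was lower in R1-6, at 733 to 949 TPM against 1588 to 2344 TPM (log2 difference -1.18, SE 0.10, adjusted p = 1.2e-05). hth, the dorsal rim homeodomain gene, had 145.1 and 118.3 TPM in TAPIN, 656 and 750.3 TPM in INTACT and 1044 and 1477 TPM in the R7 line, but 41.05 to 151.6 TPM in R8. pros, known from R7, had 126.6 to 272 TPM in R1-6, 657 and 563 TPM in R7 and 28.2 to 46.6 TPM in R8 and was not called. Factors shared by photoreceptors did not pass the test: gl had 826 to 942 TPM in R1-6 and 721 to 991 TPM in R7 and R8, Pph13 118.8 to 205.6 and 133.3 to 310.5 TPM, and oc (orthodenticle) 301 to 475 and 410.2 to 642 TPM.

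The 10 genes with the largest differences in favour of R1-6 and no overlap were retn, CG44435, ClC-a, stum, CG13272, Obp69a, fru, CG17959, Zasp52 and dve. retn (retained, also named dead ringer, an ARID-domain transcription factor; arm 2R) had 848 and 721 TPM in INTACT and 792 and 683 TPM in TAPIN, while R7 and R8 had 6.38, 9.46, 6.25, 6.11, 4.02 and 5.45 TPM, a ratio of means of 117.4 (log2 difference 6.69, SE 0.23, adjusted p = 3.4e-08). No other neuron type reached 11.2 TPM on average in TAPIN except KC_gd, which set that maximum. fru, a zinc finger gene known for its sex-specific transcripts in courtship neurons, had 1025 and 993 TPM and 863 and 749 TPM against 52.6 and 78.3 TPM in R7 and 7.62 to 10.9 TPM in R8 (log2 difference 5.43, SE 0.19, adjusted p = 3.4e-08). The other neuron types ranged from 39.9 to 4532 TPM, and R1-6 took rank 8 of 43.

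ClC-a, a chloride channel (chromosome arm 3R, 11797244 to 11813207, minus strand), had 382 and 410.4 TPM in INTACT and 918 and 981 TPM in TAPIN against 22.9, 24.1, 11.1, 8.75, 7.67 and 7.93 TPM (log2 difference 6.16, SE 0.18, adjusted p = 1.5e-08). Its highest mean among the other neuron types was 179.8 TPM, in Dm1, whose driver the study describes as holding pigment cells too. stum, a membrane protein needed by mechanosensory neurons, had 79.3 to 127.4 TPM against 0 to 4.25 TPM (log2 difference 6.14, SE 0.50, adjusted p = 1.2e-05). Zasp52, an alpha-actinin-binding protein best known from muscle Z-discs, had 981 to 1266 TPM against 17.1 to 69.4 TPM (log2 difference 5.07, SE 0.30, adjusted p = 1.1e-06), and 0 of the 6 muscle markers were on in any R1-6 library. The part of muscle cells in the Zasp52 call was not tested. Obp69a, a secreted odorant-binding protein, had 282 and 219.1 TPM in TAPIN, 71.2 and 112.2 TPM in INTACT and 1.29 to 18.6 TPM in R7 and R8 (log2 difference 5.47, SE 0.68, adjusted p = 2.7e-04). CG44435, which shares its region with CG44434, and CG13272 had 139.3 to 210.7 and 20.7 to 100.2 TPM against at most 6.14 and 3.06 TPM. CG17959 lies inside kirre on the same strand, so its reads cannot be told from those of kirre.

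In the other direction the 10 genes were pinta, CG13196, Buffy, Rh5, salm, comm, salr, Ca-alpha1T, wb and CG10035. comm (commissureless), which controls sorting of the Robo guidance receptors, had 27.2 and 53.8 TPM in INTACT and 4.87 and 7.63 TPM in TAPIN against 1181, 1097, 964, 873, 1019.8 and 778 TPM (log2 difference -7.10, SE 0.24, adjusted p = 3.4e-08). Buffy, a Bcl-2 family member, and CG13196, which overlaps it on the opposite strand, had 1.06 to 19.96 and 0.78 to 3.31 TPM against 413 to 643 and 389 to 530.0 TPM, and the reads of the pair cannot be told apart without strand. wb (wing blister, a laminin alpha chain) had 0.56 to 1.07 TPM against 60.1 to 153.1 TPM (log2 difference -5.94, SE 0.32, adjusted p = 6.6e-07). CG10035 was listed at 0 in all 4 R1-6 libraries and had 54.4, 105.7, 71.8, 61.8, 44.7 and 33.8 TPM in R7 and R8.

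R1-6 also differed from R7 and R8 in ion channels, where the shares over all genes were 8.83% higher and 9.62% lower. Of 18 voltage-gated channel genes, all tested, 7 were higher and 4 lower in R1-6 (median 0.24), and 4 were higher without R1-6 TAPIN replicate 3. para, the voltage-gated sodium channel that carries action potentials (chromosome X, 16455027 to 16533096, minus strand), had 84.6 and 84.2 TPM in the TAPIN and 425 and 631 TPM in the INTACT libraries of R1-6, against 4669.5, 5499.7, 3959, 3802, 2946 and 3475 TPM in R7 and R8 (log2 difference -5.54, SE 0.14, adjusted p = 5.9e-09). The ratio of the R7 and R8 mean to the TAPIN mean was 48.1, and all 4 R1-6 libraries lay below all 6 others. Ca-alpha1T, the T-type calcium channel, had 41.6 and 45.5 TPM and 124.6 and 170.1 TPM against 3263, 3472, 3757, 3784, 2723 and 2863 TPM (log2 difference -6.21, SE 0.12, adjusted p = 1.1e-09), a ratio of 76.1. The potassium channel Shaw (23.97 to 51.95 TPM against 110.4 to 141.8 TPM; log2 difference -2.28, SE 0.16, adjusted p = 4.6e-06) and the sodium leak channel na (13.01 to 17.7 TPM against 41.4 to 73.2 TPM; log2 difference -1.68, SE 0.26, adjusted p = 9.5e-04) were lower to a smaller extent.

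KCNQ, a slowly activating potassium channel, had 569 and 523 TPM and 807 and 770.3 TPM in R1-6 against 39.1, 36.9, 19.5, 18.5, 23.4 and 24.7 TPM (log2 difference 4.87, SE 0.14, adjusted p = 1.5e-08), a ratio of means of 29.2. Shab, the delayed rectifier of R1-6 in the electrophysiological literature, had 808 to 1042 TPM in R1-6, 302 and 247.8 TPM in R7, 37.5 and 41.3 TPM in R8_Rh5 and 12.8 and 27.9 TPM in R8_Rh6 (log2 difference 4.01, SE 0.24, adjusted p = 1.2e-06). The 3 groups fell in the order R1-6, R7 and R8 with no library of a group inside the range of another. SK, a calcium-activated potassium channel, had 1614 to 1891 TPM against 614 to 1188 TPM (log2 difference 0.97, SE 0.09, adjusted p = 2.4e-05). Ca-alpha1D, an L-type calcium channel, had 1550.1 and 1722 TPM in TAPIN but 617 and 583 TPM in INTACT, against 556 to 597 TPM in R7 and R8 (log2 difference 1.50, SE 0.08, adjusted p = 8.9e-07 for TAPIN). eag, slo and Ih were called higher at 0.53, 0.36 and 0.79, with overlap, and against R7 alone slo and Ih gave -0.02 and -0.79.

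Among 9 pumps and transporters, 4 were higher and 1 lower, and without R1-6 TAPIN replicate 3 or 4 the higher count was 2, kcc not among them. The shares over all genes were 8.83% higher and 9.62% lower. Ncc69, a sodium/potassium/chloride importer (chromosome arm 3L, 12368646 to 12391444, minus strand), had 112.4 and 128.2 TPM and 151.8 and 209.4 TPM in R1-6 against 9.14, 4.02, 4.87, 3.57, 8.69 and 1.88 TPM (log2 difference 4.95, SE 0.49, adjusted p = 5.0e-05), and kcc, which exports chloride with potassium, had 179.5 to 224.6 TPM against 142.8 to 179.8 TPM (log2 difference 0.49, SE 0.12, adjusted p = 0.016). The beta subunits of the sodium/potassium pump went in opposite directions: nrv1 had 8.16 to 29.6 TPM in R1-6 and 98.5 to 188.7 TPM in R7 and R8 (log2 difference -3.87, SE 0.27, adjusted p = 4.4e-06), and nrv2, also a glia marker, 71.3 to 108.9 and 15.1 to 49.5 TPM (log2 difference 1.94, SE 0.28, adjusted p = 7.4e-04). nrv1 and nrv2 are neighbours on arm 2L, and nrv2 is a member of the glia list, whose sum in the TAPIN libraries of R1-6 lay within the range of R7 and R8 and in the INTACT libraries above it. The part of glia in the nrv2 call was not tested.

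**Figure D2:**
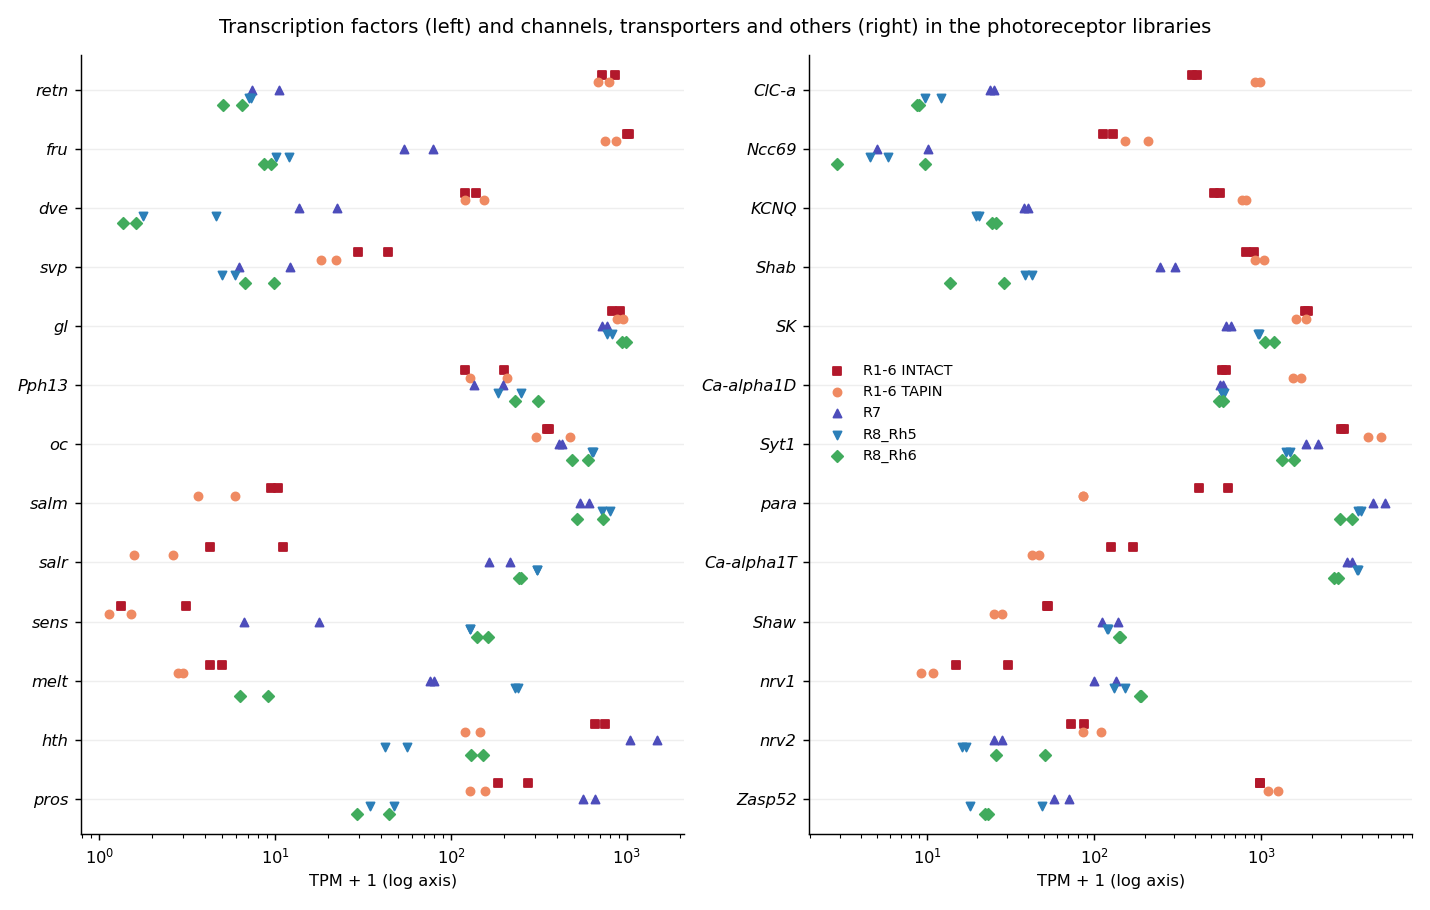
TPM + 1 (log axis) of 13 transcription factors and regulators (left) and 13 channels, transporters and other genes (right) in the 10 photoreceptor libraries; each point is a library, with symbols for R1-6 INTACT, R1-6 TAPIN, R7, R8_Rh5 and R8_Rh6. retn, fru, dve, ClC-a, Ncc69, KCNQ and Zasp52 lie to the right in all 4 R1-6 libraries, and salm, salr, para, Ca-alpha1T and nrv1 to the left, with para higher in the INTACT than in the TAPIN libraries of R1-6.

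Genes of histamine output were lower in R1-6 than in R7 and R8 or did not pass the test. Of 6 tested, 0 were higher and 3 lower in limma's test, as at an unadjusted p under 0.05, beside 8.83% and 9.62% of all genes in limma's test. Hdc, the histidine decarboxylase that makes histamine, had 246.8 and 241.04 TPM and 425 and 462 TPM in R1-6 against 531, 569, 630.4, 569, 585 and 554 TPM (log2 difference -0.37, SE 0.09, adjusted p = 0.02). t (tan), which frees histamine from its carcinine conjugate, had 316 to 490.4 TPM against 608 to 1168 TPM (log2 difference -0.95, SE 0.10, adjusted p = 6.3e-05), and CarT, the carcinine transporter, 173.5 to 483 against 644 to 1219 TPM (log2 difference -1.06, SE 0.10, adjusted p = 4.6e-05). The groups did not overlap for these 3 genes. The call for Hdc was lost under quantile normalization (-0.22), without R1-6 TAPIN replicate 3 (-0.31) or 4 (-0.43), and against R7 (-0.31) or R8_Rh6 (-0.36) alone, all 3 calls were lost with the spread of all single-driver libraries, and Hdc overlaps CR45265 and CG12209 on the other strand. CG45782 had 974 to 1341 TPM in R1-6 and 881 to 1520.3 TPM in R7 and R8 and CG8468, a monocarboxylate transporter-like gene, 480.5 to 697 and 488 to 974 TPM.

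The cholinergic locus was lower in R1-6. VAChT, the vesicular acetylcholine transporter, had 52.3 and 67.5 TPM and 29.1 and 29.5 TPM in R1-6, 95.8 and 131.2 TPM in R7 and 341 to 473 TPM in R8 (log2 difference -3.12, SE 0.16, adjusted p = 5.1e-07), and ChAT, which shares its first exon region with VAChT, had 9.96 to 19.7, 55.9 and 57.5 and 127.8 to 210.1 TPM. Both were off in all 4 R1-6 libraries. Gad1 and VGlut were called higher, yet at 14.1 to 38.8 and 21.5 to 37.2 TPM they were off in all 4 libraries, within the range of the other neuron types, and both calls were lost without either R1-6 TAPIN library. ple, tyrosine hydroxylase, had 130.9 and 80.6 TPM and 100.04 and 96.2 TPM in R1-6 and 0.79 to 10.3 TPM in R7 and R8 (log2 difference 4.61, SE 0.68, adjusted p = 7.9e-04). The probability of being on was 0.75 to 0.95 for ple in the R1-6 libraries, and the enzyme also serves cuticle and pigment formation.

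Of 16 presynaptic genes, 4 were higher and 3 lower (median 0.10), and without R1-6 TAPIN replicate 3 or 4 the higher count was 2 or 1. Beside these, 8.83% of all genes were higher and 9.62% lower. Syt1, the calcium sensor of vesicle release, had 3004 and 3105 TPM and 5185 and 4347 TPM in R1-6 against 1857, 2185, 1485, 1399, 1329.5 and 1577 TPM (log2 difference 1.56, SE 0.10, adjusted p = 2.6e-06), without overlap. Rim, an active zone scaffold, was lower at 1500.1 to 2225 TPM against 3537 to 4484 TPM (log2 difference -0.96, SE 0.11, adjusted p = 1.3e-04), and lap, an endocytic adaptor, at 558 to 639 against 842 to 1023 TPM (-0.58). cac, Csp and stj were called higher by 0.36 to 0.45, and Syx1A lower (-0.69), with overlap.

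The clock genes, of which photoreceptors have their own set, gave 1 higher and 2 lower of 8, beside 8.83% and 9.62% of all genes. per had 305 to 368 TPM in R1-6 against 108.1 to 260.3 TPM (log2 difference 0.97, SE 0.13, adjusted p = 3.5e-04), whereas its partner tim had 2864 to 6277 TPM against 7036 to 10152 TPM (log2 difference -0.62, SE 0.11, adjusted p = 0.003) and Pdp1, an activator of Clk, 4265 to 6206 against 9704 to 11540.4 TPM (log2 difference -0.99, SE 0.12, adjusted p = 2.0e-04). All 3 were without overlap between the groups. The hour of freezing of each library is not given in the sources used here, and its part was not tested.

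Adhesion genes of the dpr and DIP families, cell-surface proteins that pair between synaptic partners, had 2 higher and 5 lower of 23 tested (median 0.61), and 1 and 4 without R1-6 TAPIN replicate 3 or 4. Among all genes tested 8.83% were higher and 9.62% lower, with a median of 0.15. The higher share of this list was thus close to that of all genes. dpr11 had 96 to 154.97 TPM in R1-6, 66.9 and 59.5 TPM in R7 and 16.4 to 21.1 TPM in R8 (log2 difference 1.97, SE 0.20, adjusted p = 6.4e-05). dpr9 had 44.2 and 72.7 TPM and 17.9 and 19.1 TPM against 124.4 to 279 TPM (log2 difference -3.31, SE 0.22, adjusted p = 3.1e-06), and DIP-alpha 29.6 to 45.9 against 56.5 to 106.2 TPM (log2 difference -1.31, SE 0.20, adjusted p = 1.0e-03). Of 12 tested acetylcholine receptors 2 were higher and 2 lower, of 7 glutamate receptors 1 and 2, of 11 monoamine receptors 1 and 1, of 5 GABA receptors 0 and 0 (2 and 1 at an unadjusted p under 0.05), and of 12 glycolysis genes 1 and 2, beside 8.83% and 9.62% of all genes. Among these, Ekar, a kainate-type glutamate receptor subunit of the eye, was lower (228.9 to 532 TPM against 600.1 to 776 TPM; log2 difference -0.41, SE 0.10, adjusted p = 0.016), a call that was lost without R1-6 TAPIN replicate 3 (-0.38) or 4 (-0.45). Without replicate 3, 0 glutamate receptors, 0 monoamine receptors and 0 glycolysis genes were called in either direction, and without replicate 4 the counts were 0 higher and 1 lower for each of these lists. The acetylcholine receptors then had 1 or 0 higher and 2 lower.

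The authors' on/off model, fitted over all libraries, gave a second reading of the same contrast. R1-6 as a cell type had 5502 of 12377 modelled genes on (probability of at least 0.8), against 4761 in R7, 5157 in R8_Rh5 and 5400 in R8_Rh6. These on counts are not directly comparable, since the call combined 4 R1-6 libraries of both protocols but 2 libraries of each other type. Neither on nor off were 444 genes in R1-6, against 688 in R7, 600 in R8_Rh5 and 529 in R8_Rh6. In all 4 R1-6 libraries 4254 genes were on (34.4%) and 4342 off (35.1%). On in all 4 and off in R7, R8_Rh5 and R8_Rh6 were 76 genes (0.614%), and 68 genes showed the reverse (0.549%). By difference in mean TPM the first set was led by ninaE, dlg1, scrib, CG5273 and Zasp52, and the second by Rh5, S6KL, sfl, DIP1 and CG32425.

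dlg1 (discs large) and scrib (scribble), scaffold proteins of cell polarity and synapses, were both in the first set. dlg1 had 2495 to 3137 TPM in R1-6 against 893 to 1148 TPM (log2 difference 1.57, SE 0.09, adjusted p = 6.6e-07) and scrib 1565 to 1746 against 286 to 602 TPM (log2 difference 2.00, SE 0.09, adjusted p = 1.4e-07). Their levels in R7 and R8 were not near 0, and the off call there is relative to the range over all cell types. S6KL, a kinase known from the neuromuscular synapse, had 92.96 to 140.7 TPM in R1-6 against 816 to 1442 TPM (log2 difference -3.41, SE 0.15, adjusted p = 1.5e-07), and sfl, an N-deacetylase/N-sulfotransferase of heparan sulfate, 142.98 to 197.1 against 792 to 1381 TPM (log2 difference -2.83, SE 0.11, adjusted p = 6.6e-08).

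Against the other neuron types, which do not include R7 and R8, R1-6 were set apart by the phototransduction genes on the high side. On the low side were some of the channel and receptor genes, of which several were low in R7 and R8 too. In the TAPIN comparison, fitted over the means of 43 cell types with R1-6 as a single point assumed to vary like the other types, 399 of 10262 genes were higher (3.89%) and 315 lower (3.07%), with a median over all genes of -0.07. The INTACT comparison, over 19 types, shares no library with it. Only 2 of the other types had libraries in both protocols. Where the comparisons differ, the protocol and the set of types compared thus cannot be told apart. There 569 of 9894 genes were higher (5.75%) and 2437 lower (24.6%), with a median of -0.65. Under quantile normalization that median moved to -0.22 and the counts to 959 and 1419, so that 40.3% of the calls were higher in place of 18.9%. INTACT differences given below carry the shift of -0.65.

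Of the 17 cascade genes, 13 were higher in TAPIN and 16 in INTACT, and 0 were lower in either (0 also at an unadjusted p under 0.05), with medians of 6.92 and 5.92. Over all genes 3.89% were higher in TAPIN and 5.75% in INTACT. trpl was 9.65 higher on the log2 scale (SE 1.14, adjusted p = 1.1e-08), trp 8.90 and Gbeta76C, the eye-specific G beta subunit, 9.09. Gbeta76C had 1280.5 ± 9.45 TPM (SD, n = 2) in R1-6 TAPIN libraries, and its means in the 42 other types ranged from 0 to 8.24 TPM. The 4 genes not called in TAPIN were Ggamma30A, Gprk1, Calx and Cam. Ggamma30A had 11448 ± 191.7 TPM in R1-6 and 11347 TPM in Dm9. Cam and Gprk1 had means within the range of other types in TAPIN, with 7534 ± 853 against 1973 to 12494 TPM and 563 ± 140.4 against 210.2 to 986 TPM.

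Other photoreceptor lists were higher as well. Rhodopsin maturation had 7 of 10 higher in TAPIN and 6 of 9 in INTACT. Histamine output had 6 of 8 and 6 of 7, and the phosphoinositide cycle 5 of 10 and 4 of 10. Over all genes 3.89% were higher in TAPIN and 5.75% in INTACT. The lists' TAPIN medians were 5.19, 6.83 and 1.59. The histamine genes called higher included e in both comparisons. This gene is also on the glia list, and the authors' model called it off in all 4 R1-6 libraries. Of 6 glia markers tested, e was higher in TAPIN and repo and e in INTACT, and 0 were lower. The part of glia in these calls was not tested. ninaD, a scavenger receptor for carotenoid uptake, had 18.8 to 22.04 TPM in R1-6 and at most 1.47 TPM on average elsewhere (log2 difference 4.21, SE 0.38, adjusted p = 6.7e-12). It starts 320 bases after Arr1 on the same strand. Hdc had 443 ± 26.1 TPM in R1-6 TAPIN libraries against 0.12 to 14.8 TPM in the other types (log2 difference 7.14, SE 0.89, adjusted p = 4.2e-08). CdsA and Pis, enzymes of phosphatidylinositol synthesis, had 457 ± 26.5 and 146.1 ± 33.1 TPM against 24.3 to 143.3 and 8.28 to 41 TPM (log2 difference 2.77, SE 0.52, adjusted p = 1.3e-04 for CdsA).

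Of 25 transcription factors tested in TAPIN, Pph13, gl, so and wts were higher and 0 lower (6 and 2 at an unadjusted p under 0.05). Over all genes 3.89% were higher and 3.07% lower. Pph13, a homeodomain factor of rhabdomere and opsin genes, had 166.7 ± 55.01 TPM against 0 to 6.17 TPM (log2 difference 6.74, SE 0.65, adjusted p = 4.4e-11). gl (glass), the zinc finger factor of photoreceptor fate, had 906 ± 50.4 TPM against 0.32 to 110.4 TPM (log2 difference 8.17, SE 1.35, adjusted p = 1.5e-05), the top type being Dm1. Of the clock genes, tim had 5805 ± 669 TPM against 5.06 to 1235 TPM (log2 difference 7.75, SE 1.90, adjusted p = 0.0048), and per, Clk and cwo were higher too. Of the receptors, Ekar (4.88) and HisCl1 (3.72), a histamine-gated chloride channel, were higher, and ort, the receptor of the lamina cells, had 1.46 to 2.66 TPM.

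The 10 genes with the largest TAPIN differences and no overlap were CG1690, CG43255, CG12661, trpl, Gbeta76C, Capa, trp, inaF-C, chp and ninaC. Several share their place with cascade genes: CG1690 lies within trpl on the opposite strand, CG43255 and CG12661 lie within rdgA on the same and the opposite strand, and inaF-C overlaps inaF-B. CG43255 had 17877 to 23244 TPM in R1-6 and CG1690 7826 to 10134 TPM, and their reads cannot be told from those of the host genes, where the strand was not kept. Capa, which encodes capability neuropeptides, had 409.7 and 279 TPM and 692 and 695 TPM in R1-6 and 353 to 1114 TPM in R7 and R8, against at most 26.4 TPM in other types. It begins just beyond the end of trp on the same strand.

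On the low side, R1-6 had the lowest TAPIN mean of the 43 types compared, R7 and R8 not among them, for several genes that are broad among neurons. Of 18 voltage-gated channel genes, 5 were lower and 1 (Ca-alpha1D) higher in TAPIN, beside 3.07% and 3.89% of all genes. In INTACT 2 were lower and 2 (KCNQ and Ca-alpha1D) higher, beside 24.6% and 5.75% of all genes. para had 84.4 ± 0.35 TPM (SD, n = 2) in R1-6 against 751 to 9262 TPM in the other types (log2 difference -4.98, SE 0.66, adjusted p = 2.0e-07). Ih, the hyperpolarization-activated channel, had 90.4 ± 19.98 TPM against 711 to 3724 TPM (log2 difference -4.26, SE 0.52, adjusted p = 2.2e-08), and NaCP60E, a second sodium channel-like gene, 88.3 ± 16.3 against 147.4 to 3693 TPM (log2 difference -3.59, SE 0.94, adjusted p = 0.0092). Shaw and na were lowest too, and the INTACT comparison called both lower as well (-2.09 and -2.23), while para (-1.33), Ih (-1.42) and NaCP60E (-1.67) were not called in INTACT. Unlike para, Ih and NaCP60E were low in R7 and R8 too, at 21.9 to 162.5 and 36.2 to 110.1 TPM.

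Some receptors for acetylcholine, GABA and glutamate were lower in the TAPIN comparison, while 0 of 14 monoamine receptors were called in either direction in TAPIN or INTACT. Of 12 acetylcholine receptors 5 were lower in TAPIN, of 7 GABA receptors 3, and of 11 glutamate receptors 3, with 1 higher, beside 3.07% of all genes lower, and the list medians were -4.06, -2.51 and -2.58. In the INTACT comparison 1 of 12, 2 of 7 and 1 of 9 were lower, beside 24.6% of all genes, with medians of -1.17, -1.74 and -0.52 beside -0.65 over all genes. nAChRbeta1 had 157.2 ± 2.18 TPM against 1136 to 11612 TPM (log2 difference -4.63, SE 0.84, adjusted p = 8.2e-05), Rdl, the GABA-gated chloride channel, 91.05 ± 4.16 against 329.8 to 19516 TPM (log2 difference -5.29, SE 1.05, adjusted p = 3.2e-04), and GluClalpha, the glutamate-gated chloride channel, 79.2 ± 1.63 against 184.1 to 10283 TPM (log2 difference -4.52, SE 1.09, adjusted p = 0.0041). The potassium-dependent sodium/calcium exchanger Nckx30C (99.5 ± 10.6 against 975 to 8171 TPM) and the neuronal RNA-binding protein fne (41.8 ± 4.89 against 277 to 2556 TPM) followed the same pattern. Not all neuronal genes did: of 16 presynaptic genes 0 were called in either direction in TAPIN (1 higher and 0 lower at an unadjusted p under 0.05), and their median was -0.03, beside -0.07 over all genes. The INTACT libraries of R1-6 had more of these RNAs, with 346 and 582 TPM of Rdl, 464 and 693 TPM of nAChRbeta1 and 336 and 401 TPM of GluClalpha, and none of the 3 was called lower in the INTACT comparison. All 3 also lay below the other TAPIN types in R7 and R8. nAChRbeta1 and GluClalpha were called higher in R1-6 TAPIN libraries than in R7 and R8, with overlap, and against R7 alone both differences changed sign.

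phyl, an adaptor for protein degradation in the developing nervous system, was the gene with the largest decrease without overlap in TAPIN, and it was low in both protocols. It had 10.8 and 12.3 TPM and 14.02 and 9.66 TPM in R1-6 against 146.5 to 1939 TPM in the TAPIN and 457 to 2269 TPM in the INTACT means of the other types (log2 difference -5.96, SE 0.91, adjusted p = 3.4e-06 in TAPIN, -6.75 in INTACT). R7 and R8 had 1.31 to 9.41 TPM. dpr14 was low in the same way, with 7.17 to 29.9 TPM against 147.5 to 933 TPM (log2 difference -5.06, SE 0.59, adjusted p = 6.9e-09). CG43066 had 27.4 to 87.5 TPM in R1-6, 250.1 to 405 TPM in R7 and R8 and 367 to 3049 TPM in the other types (log2 difference -5.24, SE 0.61, adjusted p = 8.9e-09). Of 12 glycolysis genes, 0 were called in TAPIN (7 lower at an unadjusted p under 0.05) and all 12 were lower in INTACT, beside 24.6% of all genes there. Under quantile normalization 10 were lower in INTACT. Their INTACT median was -2.67 against -0.65 over all genes, and ImpL3, lactate dehydrogenase, had 8.25 and 0.34 TPM against 49.6 to 6721 TPM (log2 difference -8.48, SE 1.70, adjusted p = 9.5e-04).

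**Figure D3:**
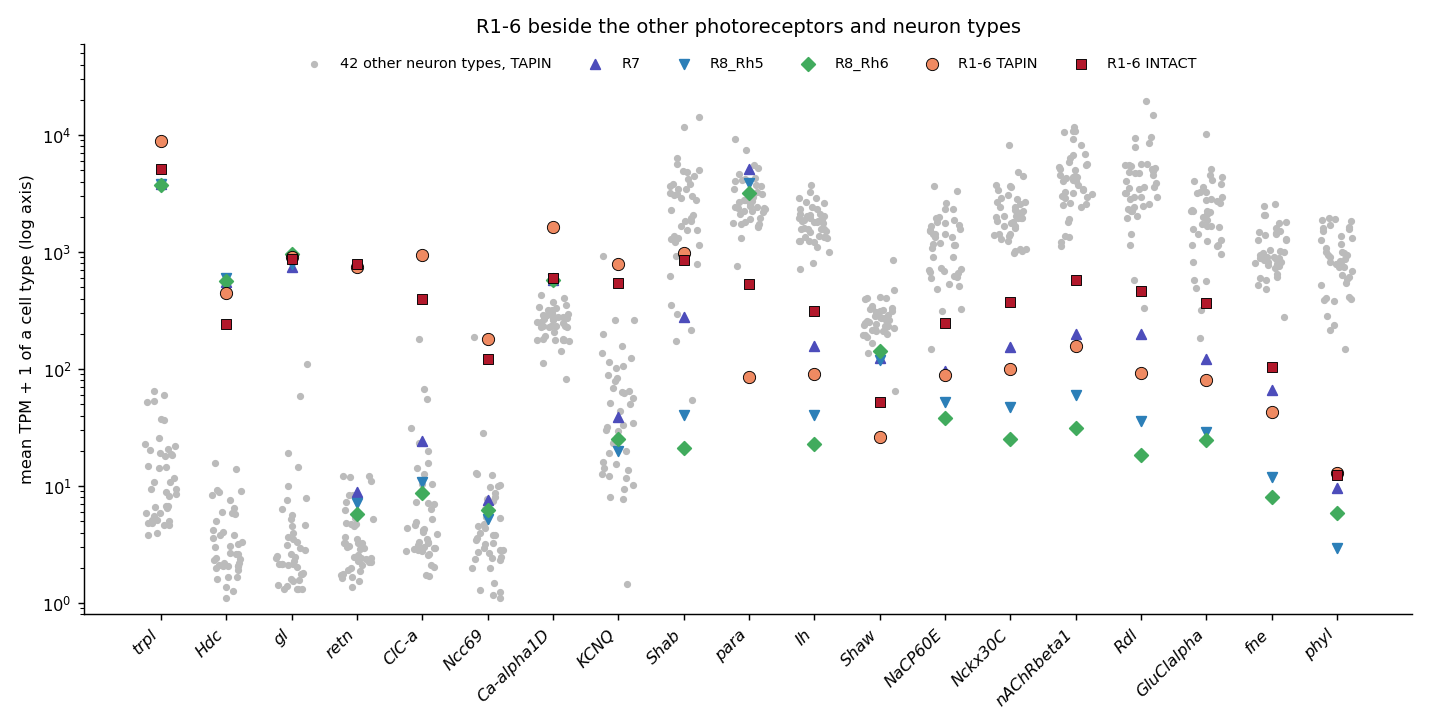
Mean TPM + 1 (log axis) of 19 genes in R1-6 (orange circles TAPIN, red squares INTACT), R7, R8_Rh5 and R8_Rh6 and in each of 42 other neuron types of TAPIN libraries (grey, spread sideways at random within a gene). trpl, Hdc, retn and ClC-a lie above the other types in R1-6, para lies below them in R1-6 but not in R7 and R8, and Ih, nAChRbeta1, Rdl, GluClalpha and phyl lie below them in R1-6 TAPIN libraries and in R7 and R8.

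The protocols gave different readings of libraries from the same driver line. The study reports that photoreceptors gave few nuclei when these were purified by centrifugation, as in INTACT. It also reports more carry-over of ninaE transcript where a library had fewer nuclei. The part of nuclear yield and carry-over in the differences below was not tested, and these libraries do not tell which protocol lies closer to the levels in R1-6. Between the INTACT and the TAPIN libraries of R1-6, 263 of 7682 genes were higher in INTACT (3.42%), and 2.27% were higher in TAPIN. Each group had 2 libraries, and leaving 1 out gave 0.841% to 1.66% higher and 0.806% to 1.19% lower. The median over all genes was 0.09, and -0.08 under quantile normalization. The labels give the protocol together with the replicate number, so the protocol and any other difference between these preparations cannot be told apart.

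Among the genes higher in INTACT were several that are broad among neurons. para had 84.6 and 84.2 TPM in TAPIN and 425 and 631 TPM in INTACT (log2 difference 2.60, SE 0.17, adjusted p = 1.3e-04), GluClalpha 78.03 and 80.3 and 336 and 401 TPM (log2 difference 2.20, SE 0.21, adjusted p = 4.0e-04) and Rdl 88.1 and 93.99 and 346 and 582 TPM (log2 difference 2.29, SE 0.39, adjusted p = 0.0088). The calls of para and GluClalpha held with any 1 of the 4 libraries left out, while that of Rdl was lost without INTACT replicate 2 (1.92), TAPIN replicate 3 (2.24) or TAPIN replicate 4 (2.34). Of 12 acetylcholine receptors 5 were higher and 0 lower (8 and 0 at an unadjusted p under 0.05), beside 3.42% and 2.27% of all genes. hth had 145.1 and 118.3 TPM in TAPIN and 656 and 750.3 TPM in INTACT (log2 difference 2.41, SE 0.21, adjusted p = 3.8e-04). Rh5 and Rh4, opsins of other cells, were higher by 2.38 and 1.75, and ninaE itself by 0.77 (SE 0.15, adjusted p = 0.016). The ninaE difference was not called with any 1 of the 4 libraries left out. It was 0 under quantile normalization, which gives genes of the same rank the same value in each library. That 0 therefore does not measure a change in ninaE. Pdh, a retinol dehydrogenase of pigment cells, had 37.6 and 70.5 TPM in TAPIN and 301 and 398 TPM in INTACT (log2 difference 2.72, SE 0.49, adjusted p = 0.011), a call lost without INTACT replicate 2 or TAPIN replicate 3, and the 7 pigment cell markers summed as given above.

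The 5 genes highest in INTACT by the rule were CG32148, Cpr49Ag, Cpr49Ae, CG13557 and CG18449. Cpr49Ag and Cpr49Ae, cuticle proteins, had 0.69 and 3.68 and 3.27 and 7.25 TPM in TAPIN against 40.2 and 119.6 and 81.7 and 242.2 TPM in INTACT, with unequal levels in the INTACT libraries. The 5 lowest were CG30382, Apf, Trs23, CG32448 and ssp2. Each of these 10 calls was lost without TAPIN replicate 3. ssp2 had 10.5 and 17.98 TPM in INTACT and 89.03 and 112.8 TPM in TAPIN (log2 difference -2.77, SE 0.49, adjusted p = 0.01), and CG30382 and Trs23 were listed at 0 in both INTACT libraries.

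Most cascade genes were lower in INTACT. Of the 17 genes 9 were lower and 2 (Arr1 and Cam) higher, with a median of -0.49, and under quantile normalization 6 were lower. Over all genes 2.27% were lower and 3.42% higher in INTACT. Galphaq had 1885 and 1863 TPM in INTACT and 3423 and 3627 TPM in TAPIN (log2 difference -0.91, SE 0.09, adjusted p = 5.1e-04), rdgC 1043 and 951 and 2016 and 2485 TPM (log2 difference -1.17, SE 0.13, adjusted p = 9.6e-04) and trpl differed by -0.77. Lower in INTACT were also 4 of 6 histamine genes, with CarT at 186.04 and 173.5 and 437 and 483 TPM (log2 difference -1.35, SE 0.13, adjusted p = 3.9e-04), 5 of 16 presynaptic genes, with unc-13 at 2723 and 2475 and 5094 and 5139 TPM (log2 difference -0.98, SE 0.09, adjusted p = 3.9e-04), and Ca-alpha1D (log2 difference -1.44, SE 0.10, adjusted p = 1.5e-04). Of genes that separated R1-6 from R7 and R8, the difference between the protocols was 0.09 for retn, -0.07 for dve, -0.03 for scrib, -0.26 for Zasp52 and 0.33 for fru, none of them called, while ClC-a was lower in INTACT (log2 difference -1.26, SE 0.22, adjusted p = 0.0097), a call lost with any 1 of the 4 libraries left out. When any 1 of the 4 libraries was left out, the higher count was 0 to 1 and the lower count 5 to 6 for the cascade, the lower counts were 2 for histamine genes and 2 to 3 for presynaptic genes, and the higher count for acetylcholine receptors was 2 to 3. By the authors' model 1.27% of the modelled genes were on in both INTACT and off in both TAPIN libraries, para among them, and 45 genes showed the reverse (0.364%).

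**Figure D4:**
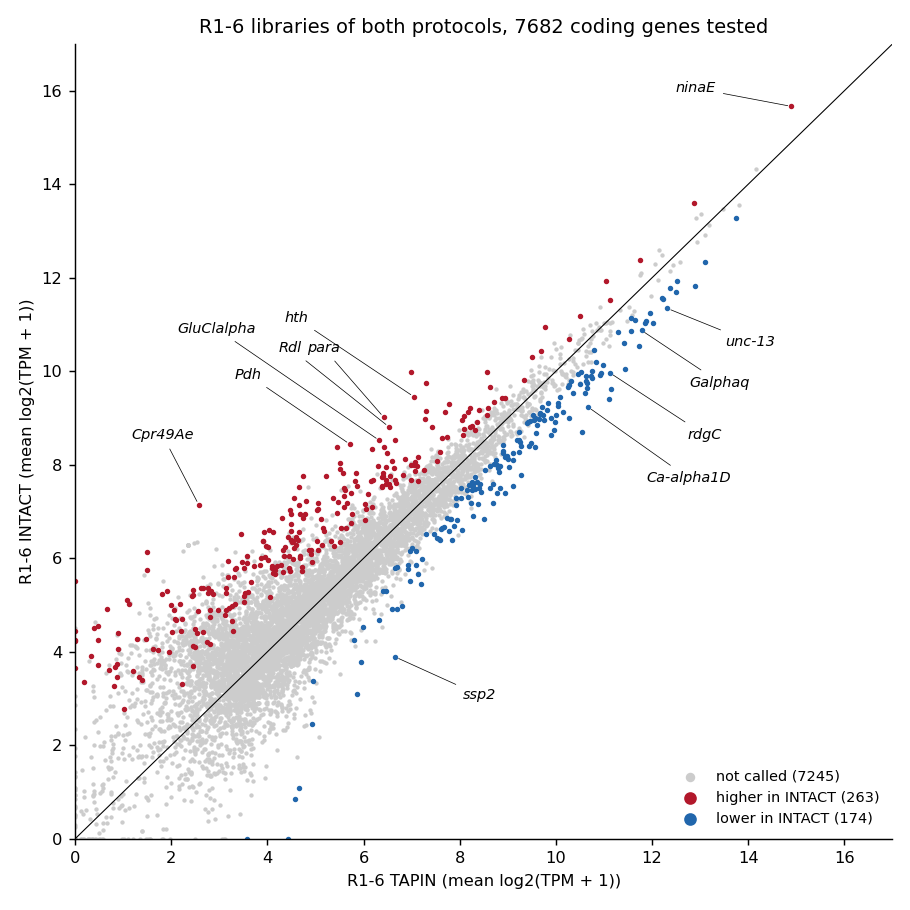
Level in the R1-6 INTACT libraries (vertical) against the R1-6 TAPIN libraries (horizontal), both as mean log2(TPM + 1) of 2 libraries, for the 7682 genes tested; red genes were higher and blue genes lower in INTACT, and the line marks equal levels. para, Rdl, GluClalpha, hth and Pdh lie above the line and Galphaq, rdgC, unc-13, Ca-alpha1D and ssp2 below it.

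Transcript shares were read for 46 genes of the rhodopsin, cascade, phosphoinositide, presynaptic and voltage-gated channel lists with several annotated transcripts and at least 30 TPM in every photoreceptor library. As a description with no test, 35 of 369 transcripts in 18 genes had shares in the 4 R1-6 libraries that did not overlap with those in R7 and R8, and for 1 the gap was over 5 percentage points. That was the unc-13 transcript FBtr0089245, with 5.47%, 12%, 8.55% and 8.13% of the gene's TPM in R1-6 against 18.3% to 24.3% in R7 and R8. For norpA, the transcript FBtr0100671 took 2.3% to 6.94% in R1-6 and 9.69% to 12.8% in R7 and R8. The Syt1 transcript FBtr0332220 took 78.2% to 89.6% against 64.6% to 73.3%.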

How the data were processed

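Nuclear RNA from adult fly heads had been profiled in 266 libraries, of which the authors trimmed 5 bases from the reads with seqtk and estimated transcript levels with kallisto (version 0.43.1 in the study's methods, Ensembl release 91), with the genome build dm6 named in the submitters' processing notes. Per the labels and the study's methods, the deposited values are TPM, from which the authors had removed spike-ins, the tag and ribosomal RNA before rescaling 13931 coding genes to a fixed sum. TPM keeps no read counts, so depth is unknown and no counting interval is given. The library kit did not mark strand. The deposited probability of each of 12377 modelled genes being on is a fraction between 0 and 1 from the authors' mixture model of log TPM, with on at 0.8 or above and off at 0.2 or below. Deposited columns that pool replicates are the authors' means and enter no test. The spike-in share was taken from the deposited TPM before rescaling.

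Here log2(TPM + 1) was tested with limma 3.58.1 (R 4.3.3), with a trend in the variance, two-sided, adjusted over all genes tested by Benjamini-Hochberg at 0.05, among genes that reached 10 TPM in 2 or more of the 10 photoreceptor libraries or, against the other neuron types, in 1 or more cell types. Those comparisons used cell type means. Tables and figures used Python 3.11.15, pandas 2.3.3, numpy 2.4.6 and matplotlib 3.10.9. The fits were tested on simulated data with 200 changed genes. Alternatives in pseudocount, filter, scaling, libraries and spread are given in the closing section. Genes were named as members of 26 fixed lists (262 genes found), as the 10 largest called differences each way without overlap between libraries (5 between the protocols), or as the 5 largest differences in mean TPM each way among genes that the model called on in R1-6 and off in the other photoreceptors, or the reverse. A few genes outside those lists are named for overlapping a named gene. The lists, the rule and the tests were chosen with earlier results of these data known. Coordinates are from Ensembl release 115 (BDGP6.54), used only for the place of genes.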

Additional observations from a re-analysis of the deposited data

Results flagged for a closer look

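Outside the coding genes compared above, 3667 non-coding genes had TPM values, and 391 of them had at least 10 TPM in all 4 R1-6 libraries. Of these, 57 lay above and 48 below all 6 libraries of R7 and R8. Of the 57, 20 also lay above all libraries of other neuron types, and 18 also above the 16 control libraries. By their labels the controls were of several kinds: captures without a driver, mock captures, captures with anti-FLAG beads, and input and first-capture libraries of Tm1. The 12 with at least 100 TPM in every R1-6 library were picked out after their values were seen, for a signal outside the main measurement that was above the control libraries. CR43900 had at least 3338 TPM in R1-6 (at most 6032), 1351 to 1894 TPM in R7 and R8 and at most 1260 TPM in other neuron types, and lies with Cam on the same strand. CR43836 (at least 2291 TPM) and CR44111 (at least 1578 TPM) overlap rdgA. CR45153, with at least 209.98 TPM in R1-6 and 0 to 7.43 TPM in R7 and R8, overlaps retn on the opposite strand. CR44331 had at least 729 TPM and overlaps puc on the opposite strand, and CR44360 had at least 335 TPM and overlaps DopEcR on the same strand. CR45179 had at least 260.0 TPM and overlaps CG43954 and Lasp. CR44117, which overlaps Crg-1, and CR44118, which overlaps fd3F, had identical values in each of the 10 photoreceptor libraries (at least 138.04 TPM in R1-6). These 2 of the 12 thus cannot be read as separate signals. No overlapping gene was found for CR43458 (at least 303 TPM), CR42874 (at least 261 TPM) and CR40172 (at least 105.65 TPM). Without strand, reads of an overlapping pair cannot be told apart.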

How the results depend on the processing

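Depth is unknown, each R1-6 protocol had 2 libraries, and R7 and R8 had no INTACT library here. In the comparison with R7 and R8, leaving out 1 library at a time gave 294 to 831 genes higher and 433 to 782 lower, with the lowest counts without an R1-6 library. With all 4 R1-6 libraries as a single group 1055 genes were higher, and with the INTACT libraries in place of the TAPIN libraries 1381. Between the protocols, leaving out 1 library gave 0.841% to 1.66% of genes tested higher and 0.806% to 1.19% lower in INTACT, no filter on low values 1.69% and 1.10% of a larger set, a pseudocount of 10 TPM 5.39% higher, and the spread of all single-driver libraries 9.63% higher. Against other neuron types in INTACT libraries, quantile normalization gave 959 genes higher and 1419 lower. The cause of these changes was not tested, beyond the loss of a library where 1 was left out. In the remaining 82 cases the counts of called genes and of genes on or off stayed within 1.5 times of the reported value.

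Among the genes named above, the difference between R1-6 and R7 and R8 changed sign in these cases. With INTACT in place of TAPIN libraries it was -0.23 for Gbeta76C, -0.088 for trp, -0.057 for inaC, -0.49 for rdgC, -0.33 for Calx, -0.39 for PIP5K59B, -0.19 for didum, 1.78 for hth, -0.11 for Csp and -1.67 for CG30382, and with all 4 libraries as a single group 0.58 for hth. Against R8_Rh5 alone it was 1.42 for Rh2, 1.19 for Rh3, 2.72 for Rh4, -0.79 for ninaB and 1.44 for hth. Against R8_Rh6 alone it was 0.15 for sktl and -0.40 for wts. Against R7 alone it was -0.59 for GluClalpha, -0.31 for nAChRbeta1, -0.018 for slo, -0.79 for Ih, -0.61 for Nckx30C and -0.63 for fne. In the other comparisons no named gene changed sign, and calls were lost in 7 cases against other neuron types in TAPIN and 16 in INTACT. Between the protocols up to 34 of the named calls were lost, without TAPIN replicate 3. No paired analysis was possible because the TAPIN libraries of R1-6 are numbered 3 and 4, those of R7 and R8 and the INTACT libraries 1 and 2, and the comparisons with other neurons used cell type means. The planned count of promoter motifs was not run, since no promoter sequences were used here.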
